A study of Mus musculus with 24 samples.

Results

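The interferon regulatory factors (IRFs) are transcription factors that bind a shared DNA element in the genes they control, and 6 of their genes, Irf1, Irf2, Irf3, Irf5, Irf7 and Irf8, were taken by symbol from the 25229 gene rows of an RNA sequencing experiment. IRF3 and IRF7 switch on type I interferon and early antiviral genes once kinases downstream of nucleic acid sensors have phosphorylated them, IRF1 is itself induced by interferons and drives antigen presentation genes, and IRF2 binds the same sites as IRF1 and often opposes it. IRF5 acts downstream of Toll-like receptors on inflammatory cytokine genes, and IRF8 belongs to the development of dendritic cells and macrophages. Because IRF3, IRF5 and IRF7 proteins are activated after translation, the values here describe transcript levels and not the activity of the proteins.

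The cells were ID8 P53 KO cells (ID8 Trp53−/−), a mouse ovarian cancer line that lacks the tumor suppressor p53. They were treated for 6 days with DMSO as the vehicle, with cisplatin at 750 nM, with AU-15330 at 2.5 µM, or with cisplatin and AU-15330 together (the combination), and every group therefore shared the same p53 loss. Cisplatin is a DNA-crosslinking drug used in the study to make the cells senescent, and the PROTAC AU-15330 marks SMARCA4 and SMARCA2, the motors of the SWI/SNF chromatin remodeling complex, for degradation. Each group held 6 libraries numbered 1 to 6, all from 1 cell line with no p53 wild-type control. Since AU-15330 removes proteins, no transcript checks its labels, and the labels do not say whether replicates were separate cultures, so the p-values measure only the spread between these libraries.

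Total counts ran from 17592588 to 25260009 per library, and 3 counts, taken as the floor of detection, corresponded to 0.120 to 0.186 CPM, a floor that covers counting error only. CPM are counts per 1000000 counts on tested genes, adjusted by the TMM factor of edgeR. Of the 9 ovarian surface epithelial and mesothelial markers followed, none was at 0 throughout a group, and their summed level was 3513 to 5309 CPM with DMSO, 4178 to 4854 with cisplatin, 1018 to 1150 with AU-15330 and 1223 to 1404 with the combination. Of 16 haematopoietic markers, Cd14 and Cd68 alone exceeded a group mean of 1 CPM, and Siglech, a marker of plasmacytoid dendritic cells, had 0 counts in all 24 libraries. Their summed level was 13.4 to 30.9 CPM with DMSO, 12.7 to 19.4 with cisplatin, 18.1 to 54.3 with AU-15330 and 26.1 to 43.3 with the combination. With AU-15330 against DMSO, Cd68 rose by 1.56 ± 0.29 on the log2 scale and Cd14 fell by 3.96 ± 0.23. The 4 endothelial markers summed to 2.87 to 4.28 CPM with DMSO, 8.51 to 12.8 with cisplatin, 0.261 to 0.763 with AU-15330 and 0.483 to 1.20 with the combination, and Pecam1 alone exceeded a group mean of 1 CPM. In bulk RNA, fewer cells with a transcript and less of it in each cell cannot be told apart. Replicates 1 to 3 differed from replicates 4 to 6 for several IRF genes, so values within each of these sets are given where they change a result.

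The upstream sequences of 4 of the genes are shown because interferon and NF-kB signals are known to reach IRF genes through short elements near the start. They are RefSeq sequences of GRCm38.p6 and end at the base before the outer boundary of the RefSeq gene. For Irf7 that boundary, position 141266499, lies upstream of the start used for its window, position 141266424, which leaves 175 bases. All 6 genes had an entry, with 8 windows of 300 bases, 250 before and 50 after an annotated start. Capitals mark 3 motifs searched on both strands: the core of the interferon-stimulated response element (ISRE), written GAAANNGAAA, the STAT-binding GAS element, written TTCNNNGAA, and the NF-kB consensus.
Irf1 (chr11:53769764-53770013, plus strand): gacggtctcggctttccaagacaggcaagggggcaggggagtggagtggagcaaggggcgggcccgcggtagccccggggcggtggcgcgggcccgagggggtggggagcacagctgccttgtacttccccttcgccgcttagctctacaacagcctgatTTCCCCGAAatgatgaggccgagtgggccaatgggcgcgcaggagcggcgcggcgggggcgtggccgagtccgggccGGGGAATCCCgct
Irf2 (chr8:46739495-46739744, plus strand): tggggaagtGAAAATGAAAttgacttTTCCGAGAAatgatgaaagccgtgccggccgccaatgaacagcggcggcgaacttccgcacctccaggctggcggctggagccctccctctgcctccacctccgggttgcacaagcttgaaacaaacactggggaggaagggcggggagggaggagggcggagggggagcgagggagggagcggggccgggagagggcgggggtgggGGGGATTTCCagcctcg
Irf7 (chr7:141266500-141266674, minus strand): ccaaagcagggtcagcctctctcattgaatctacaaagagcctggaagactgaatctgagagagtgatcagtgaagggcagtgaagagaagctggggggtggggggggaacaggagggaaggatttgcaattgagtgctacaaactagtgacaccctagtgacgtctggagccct
Irf8 (chr8:120736108-120736357, plus strand): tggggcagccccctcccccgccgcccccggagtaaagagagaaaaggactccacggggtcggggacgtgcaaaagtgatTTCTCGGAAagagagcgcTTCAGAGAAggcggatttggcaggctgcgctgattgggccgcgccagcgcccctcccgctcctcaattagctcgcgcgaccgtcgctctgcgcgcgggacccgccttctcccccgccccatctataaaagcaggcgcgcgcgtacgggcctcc
The Irf1 sequence held a GAS match, TTCCCCGAA, 90 bases before the start and an NF-kB match, GGGGAATCCC, at 13 bases. Irf2 held an ISRE match, GAAAATGAAA, at 241 bases, a GAS match, TTCCGAGAA, at 224 bases and an NF-kB match, GGGGATTTCC, at 17 bases. The last of these, at positions 46739728 to 46739737, runs across the start of the gene in GENCODE vM21, position 46739732, and so lies partly within that gene. Irf8 held GAS matches at 171 and 153 bases, TTCTCGGAA and TTCAGAGAA. None of the 7 matches overlapped another. The windows of Irf3, Irf5 and Irf7 held no match. Of all 32851 RefSeq windows of this length, 3.44% held the ISRE core, 8.30% the GAS element and 4.51% the NF-kB consensus. A match describes letters in the window and not binding, and its absence says only that those letters are not there.

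Of the 6 genes, 5 passed the filter on low counts, and Irf8 did not. Irf8 had 2 counts in 1 DMSO library, 5 counts over 3 cisplatin libraries and 0 counts in all libraries with AU-15330 or the combination. No library thus reached the floor of 3 counts, and no change could be detected at this depth. In GENCODE vM21 the whole body of Irf8 lies within Gm20388, a longer annotated gene on the same strand, and what the counting did with reads that fall in both is not given in the sources used here. Of 8 genes followed as partners or targets of IRF8 in myeloid cells, Spi1, Csf1r, Ctss, Batf3 and Il12b did not pass the filter either, and Cybb, Id2 and Klf4 did. Irf4, which belongs to the family but not to this group of genes, had at most 3 counts in any library.

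**Figure D1:**
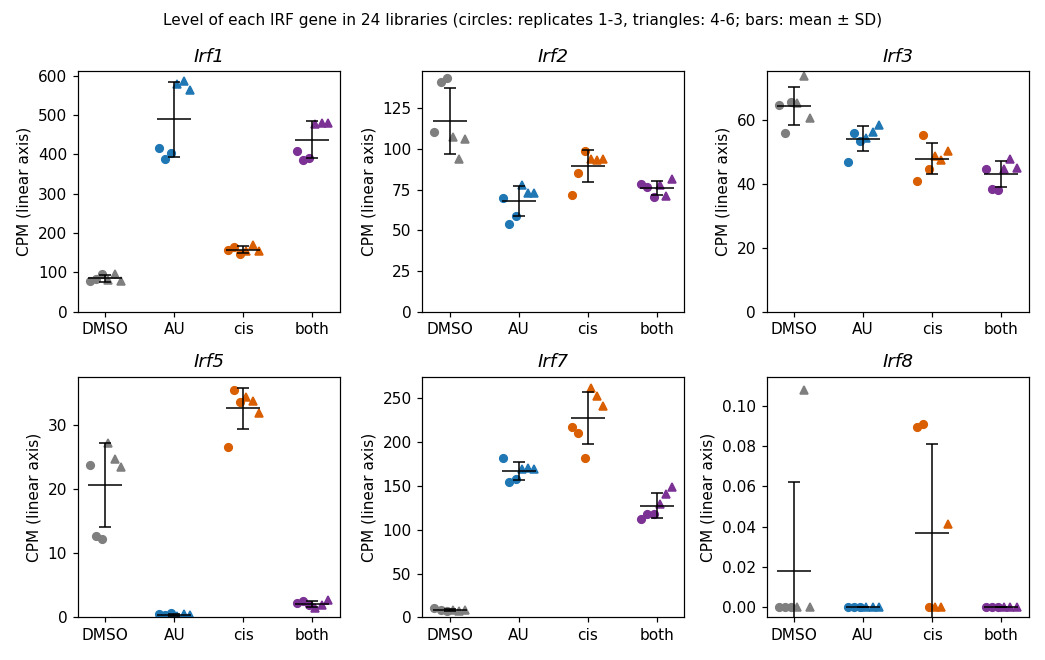
CPM of the 6 IRF genes in 24 libraries on linear axes that differ between panels, with 6 libraries in each of DMSO, AU-15330 (AU), cisplatin (cis) and the combination (both). Circles are replicates 1 to 3, triangles replicates 4 to 6, and bars the mean ± SD. Irf7 lay between 7.59 and 11.1 CPM with DMSO and at 112 CPM or more in every treated library, while Irf5 reached at most 2.74 CPM wherever AU-15330 was given.

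Compared per length of the gene's exons, the order of the genes changed with the treatment. In DMSO-treated cells Irf1 stood at 21.4 ± 2.27 CPM per kb (SD, n = 6), Irf3 at 18.7 ± 1.72, Irf2 at 15.8 ± 2.76, Irf5 at 7.10 ± 2.23 and Irf7 at 2.25 ± 0.342. With cisplatin Irf7 was the highest of them at 60.2 ± 7.90 CPM per kb, followed by Irf1 at 39.7 ± 2.07. With AU-15330 Irf1 led at 123 ± 24.1 CPM per kb, Irf7 followed at 44.2 ± 2.63, and Irf5 was the lowest tested gene at 0.149 ± 0.0587. With the combination Irf1 and Irf7 again led, at 110 ± 11.8 and 33.8 ± 3.80 CPM per kb. The exon lengths are those of GENCODE vM21, which may not be the annotation the authors counted on.

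In GENCODE vM21 (GRCm38), Irf1 is annotated at chr11:53770014-53778374, Irf2 at chr8:46739732-46847458, Irf3 at chr7:44997648-45002848, Irf5 at chr6:29526625-29541871 and Irf8 at chr8:120736358-120756694 on the plus strand, and Irf7 at chr7:141262706-141266481 on the minus strand. Each gene except Irf8 shares bases with a gene on the opposite strand. For Irf7 that gene is Phrf1, with 45 shared bases, for Irf1 it is Gm17334, with 907, and for Irf2 there are 3, sharing 433 to 1723 bases.

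The first comparison asked what cisplatin alone did. Cisplatin raised Irf7, Irf1 and Irf5 and lowered Irf2 and Irf3, so that all 5 tested genes passed the threshold of an adjusted p under 0.05, where 51.7% of the 12941 tested genes did so (26% higher and 25.7% lower). Irf7 moved most, and the other 4 by less than 2-fold. With libraries scaled by their totals alone, 61.1% of the called genes were higher in this comparison in place of 50.2%, but the 5 genes kept their directions. 

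Irf7, the factor that amplifies type I interferon, had 7.59, 8.01 and 11.1 CPM (lowest, median and highest) with DMSO and 182, 229 and 262 CPM with cisplatin. The groups did not overlap, as for 24% of tested genes. The log2 fold change was 4.75 ± 0.11 (SE), which is 26.9-fold, with an adjusted p of 2.16e-21. Irf1 rose from 77.04, 81.5 and 96.8 CPM to 147, 156 and 170 CPM, again without overlap. Its change was 1.86-fold (log2 0.89 ± 0.10, adjusted p = 6.93e-08).

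Irf5 had 12.2, 23.6 and 27.1 CPM with DMSO and 26.5, 33.6 and 35.4 CPM with cisplatin, and the groups overlapped. The DMSO libraries numbered 2 and 3 held the low values of 12.7 and 12.2 CPM. The change was 0.66 ± 0.17 on the log2 scale (adjusted p = 0.00185). Within replicates 1 to 3 it was 0.98 and within replicates 4 to 6 it was 0.40, with adjusted p-values of 0.00443 and 0.0172. 

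Both genes that fell did so modestly. Irf3 had 56.0, 65.1 and 73.7 CPM with DMSO and 41.1, 48.1 and 55.4 CPM with cisplatin, with no overlap and a log2 change of -0.43 ± 0.08 (adjusted p = 6.17e-05). Irf2 had 94.0, 109 and 144 CPM with DMSO and 71.8, 93.4 and 98.8 CPM with cisplatin, and its groups overlapped. Its log2 change was -0.39 ± 0.10 (adjusted p = 0.00236). This change was seen within replicates 1 to 3, at -0.63 (adjusted p = 0.00357), but fell short of the threshold within replicates 4 to 6, at -0.14 (adjusted p = 0.0746).

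The second comparison asked what AU-15330 did in cells without cisplatin. AU-15330 raised Irf1 and Irf7 and lowered Irf5, Irf2 and Irf3. Again all 5 tested genes passed the threshold, in a comparison where 73.4% of tested genes did (36.2% higher and 37.2% lower), and 4 of them, all but Irf3, had groups without overlap against 49.9% of tested genes. Irf5 and Irf7 moved in opposite directions and by more than 4 log2 units each.

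Irf5 fell to 0.143, 0.465 and 0.617 CPM with AU-15330, from 12.2, 23.6 and 27.1 CPM with DMSO. Behind the AU-15330 values stood only 3 to 15 counts per library, against 252 to 606 with DMSO. The change was 46.5-fold (log2 -5.54 ± 0.25, adjusted p = 1.37e-16), and it measured -4.94 within replicates 1 to 3 and -6.17 within replicates 4 to 6. Irf5 shares 1045 bases with Tnpo3 on the opposite strand, which had 2162 to 3948 counts per library, and the strand setting of the counting is not given in the sources used here. At most 15 counts can therefore have come from Tnpo3 in any library treated with AU-15330 alone. The fall of Irf5 ran beside that of the epithelial and mesothelial markers. All 8 tested markers were lower with AU-15330, where 37.2% of tested genes were. Their median log2 change was -2.35 against 0.00 over all tested genes. Pecam1, the endothelial marker that passed the filter, moved the same way as Irf5, by 1.49 ± 0.16 with cisplatin and by -2.95 ± 0.20 with AU-15330. Of the 2 haematopoietic markers that passed, Cd14 fell with each drug alone, by 0.75 ± 0.18 with cisplatin, and Cd68 rose with AU-15330, so neither moved with Irf5 throughout. The part of these markers in the result was not tested.

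Irf7 had 154, 169 and 182 CPM with AU-15330, all far above the DMSO libraries. The change was 19.7-fold (log2 4.30 ± 0.11, adjusted p = 1.69e-21). Irf1 had 388, 490 and 587 CPM with AU-15330 and rose 5.76-fold (log2 2.53 ± 0.11, adjusted p = 4.38e-17). Replicates 1 to 3 held the lower Irf1 values, 388 to 417 CPM, and replicates 4 to 6 the higher, 563 to 587 CPM, while in DMSO the means of the sets were 84.9 and 85.0 CPM. The log2 change was 2.24 in the first set and 2.75 in the other.

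Irf2 had 53.9, 71.3 and 77.8 CPM with AU-15330, every library below the lowest DMSO library. Its log2 change was -0.79 ± 0.10 (adjusted p = 1.36e-07), -1.12 within replicates 1 to 3 and -0.47 within replicates 4 to 6. Irf3 had 46.9, 55.2 and 58.7 CPM and overlapped with DMSO, with a log2 change of -0.25 ± 0.08 (adjusted p = 0.00630). Scaling by library totals moved the median change of all tested genes to 0.13 in this comparison, and Irf3 then showed -0.12 (adjusted p = 0.192). Within replicates 1 to 3 its change was -0.26 (adjusted p = 0.0975). Irf3 shares 1065 bases with Bcl2l12 on the opposite strand, a gene with 184 to 426 counts per library.

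**Figure D2:**
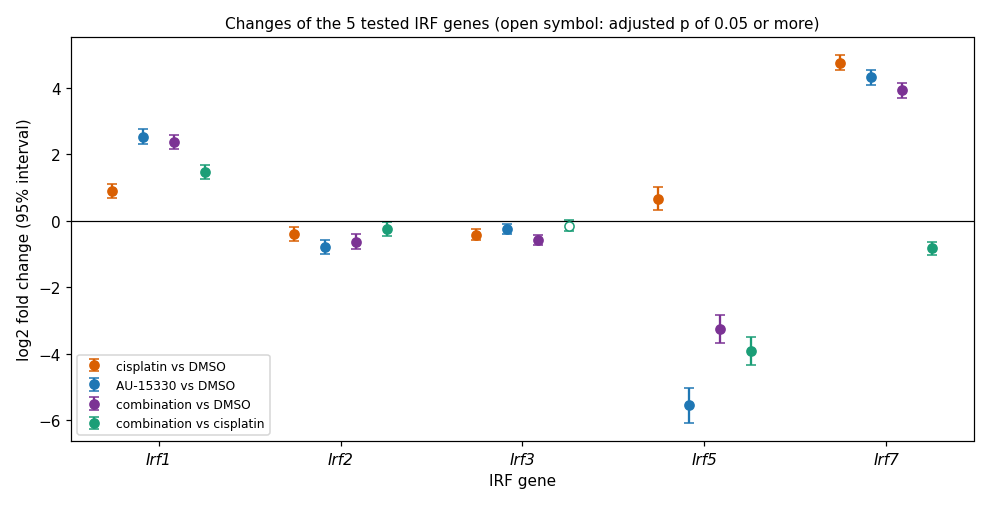
Log2 fold changes of the 5 tested IRF genes (vertical axis) with their 95% intervals, from the fit of 24 libraries, for cisplatin, AU-15330 and the combination against DMSO and for the combination against cisplatin. Filled symbols passed an adjusted p of 0.05, and the open symbol, Irf3 in the combination against cisplatin, did not. Irf1 and Irf7 lie above 0 in all 3 comparisons with DMSO, and Irf5 lies below -3 in each comparison that adds AU-15330.

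The comparison at the center of the design set the combination against cisplatin alone, asking what AU-15330 did in cisplatin-treated cells. Irf1 rose further, Irf5 and Irf7 fell, Irf2 fell slightly, and Irf3 did not pass the threshold, which makes 4 of 5 genes called where 68.1% of tested genes were (35.4% higher and 32.7% lower). The groups of Irf1, Irf5 and Irf7 did not overlap, as for 50.2% of tested genes.

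Irf1 had 385, 443 and 481 CPM with the combination, against 147, 156 and 170 CPM with cisplatin, a 2.77-fold increase (log2 1.47 ± 0.10, adjusted p = 1.84e-12). Irf5 had 1.45, 2.13 and 2.74 CPM, or 32 to 59 counts per library, and was 15.1-fold lower than with cisplatin (log2 -3.91 ± 0.20, adjusted p = 3.08e-15). Irf7 had 112, 124 and 148 CPM with the combination, below every library treated with cisplatin alone, and was 1.78-fold lower (log2 -0.83 ± 0.09, adjusted p = 7.62e-09). Thus AU-15330 went with higher Irf7 in cells without cisplatin and with lower Irf7 in cells with it.

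Irf2 had 70.2, 77.3 and 81.6 CPM with the combination and overlapped with cisplatin, and its log2 change of -0.24 ± 0.10 was close to the threshold (adjusted p = 0.0426). That call was lost without replicate 3, 4, 5 or 6, with adjusted p-values of 0.0718 to 0.108. Irf3 had 38.0, 44.6 and 47.9 CPM, and its log2 change of -0.15 had a 95% interval of -0.32 to 0.01 (adjusted p = 0.0829). Leaving out replicate 1 gave -0.25 with an adjusted p of 0.0108, so the call for Irf3 rests on the choice of libraries.

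Against DMSO, the combination left all 5 tested genes changed, where 73.3% of tested genes were (36.8% higher and 36.5% lower). Irf7 was 15.1-fold higher (log2 3.91 ± 0.10), Irf1 5.14-fold higher (2.36 ± 0.11), Irf5 9.55-fold lower (-3.26 ± 0.20), Irf2 1.54-fold lower (-0.62 ± 0.10) and Irf3 1.49-fold lower (-0.58 ± 0.08), with adjusted p-values of 5.18e-06 or less. None of the 5 overlapped with DMSO, as for 49.5% of tested genes.

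Set against AU-15330 alone, the combination differed in 3 of 5 genes, where 41.7% of tested genes did (22.2% higher and 19.5% lower). Irf5 was 4.88-fold higher with cisplatin added (log2 2.29 ± 0.29, adjusted p = 6.46e-07), Irf7 was lower by 0.39 ± 0.09 on the log2 scale and Irf3 by 0.33 ± 0.08, with adjusted p-values of 0.00113 and 0.00133. Irf5 and Irf7 did not overlap, as for 29.6% of tested genes. For Irf1 the difference was -0.16 with a 95% interval of -0.37 to 0.05, and for Irf2 it was 0.17 with an interval of -0.05 to 0.38. Within replicates 4 to 6 alone, the difference for Irf1 was -0.30 and was called (adjusted p = 0.00946).

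The 2 single drugs differed from each other in all 5 genes, where 73.1% of tested genes did (35.8% higher and 37.3% lower). Irf1 was 3.10-fold higher with AU-15330 than with cisplatin, and Irf5 was 73.5-fold lower. Irf7 differed by -0.45 ± 0.09 and Irf2 by -0.40 ± 0.10 on the log2 scale, both lower with AU-15330, with adjusted p-values of 8.26e-05 and 0.000987. Irf1, Irf5 and Irf7 did not overlap, as for 57.4% of tested genes. Irf3 was higher with AU-15330 by 0.18 ± 0.08 (adjusted p = 0.0438), a call lost without any 1 of replicates 1, 3, 4, 5 and 6, where the adjusted p was 0.0618 to 0.152.

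These comparisons gave each gene its own order of groups. For Irf7 the order was DMSO, combination, AU-15330 and cisplatin, and every neighbour differed. For Irf1 it was DMSO, cisplatin, combination and AU-15330, of which the last pair did not pass the threshold. Irf5 ran from AU-15330 through the combination and DMSO to cisplatin, with each step called. Irf2 was lowest with AU-15330 and the combination, a pair that did not pass, then cisplatin, then DMSO. Irf3 was lowest with the combination and cisplatin, a pair that did not pass, then AU-15330, then DMSO. The steps from the combination to cisplatin for Irf2 and from cisplatin to AU-15330 for Irf3 rest on the calls above that were lost without single replicates.

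Whether AU-15330 acted differently in cells with and without cisplatin was tested as the interaction of the 2 drugs, the log2 effect of AU-15330 in cisplatin-treated cells minus that in cells without cisplatin. It was called for Irf7, Irf1, Irf5 and Irf2 and not for Irf3, where 33.7% of tested genes were called (17.9% positive and 15.8% negative). With libraries scaled by their totals, 41.7% of the called interactions were positive in place of 53.0%, and the same 4 genes kept their directions.

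The interaction of Irf7 was -5.14 ± 0.14 (adjusted p = 1.36e-19), from an effect of AU-15330 of 4.30 without cisplatin and -0.83 with it. That of Irf1 was -1.06 ± 0.14 (adjusted p = 3.76e-06), since AU-15330 raised Irf1 by 2.53 without cisplatin and by 1.47 with it. For both genes, the level with the 2 drugs was below what the sum of the single-drug changes on the log2 scale would give, and for Irf7 it was below the level with either drug. The interaction of Irf5 was 1.63 ± 0.34 (adjusted p = 0.000647), the fall being -5.54 without and -3.91 with cisplatin, and rested on 3 to 15 counts per library with AU-15330. Within replicates 1 to 3 it was 1.10 and not called (adjusted p = 0.106), and within replicates 4 to 6 it was 2.12 (adjusted p = 0.000561).

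Irf2 had an interaction of 0.55 ± 0.14 (adjusted p = 0.00417), with -0.79 without and -0.24 with cisplatin. The opposite set of replicates carried it: it was 0.90 within replicates 1 to 3 (adjusted p = 0.00928) and 0.16 within replicates 4 to 6 (adjusted p = 0.201). For Irf3 the interaction was 0.09, with a 95% interval of -0.14 to 0.32.

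**Figure D3:**
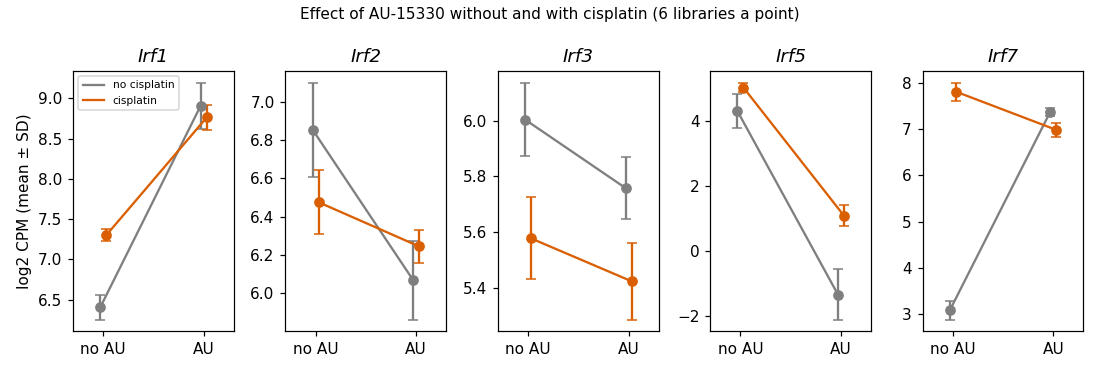
Mean log2 CPM ± SD (vertical axis, scales differing between panels) of the 5 tested IRF genes without and with AU-15330, 6 libraries a point, in cells without cisplatin (gray) and with cisplatin (orange). For Irf7 the gray line climbs by 4.30 in the fit and the orange line falls by 0.83, and for Irf3 the lines run nearly parallel.

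IRF9, the DNA-binding subunit of the complex that carries interferon signals to ISRE elements, belongs to the family but not to this group, and its gene is given here beside Irf7. Irf9 rose by 2.47 ± 0.08 on the log2 scale with cisplatin, by 2.82 ± 0.09 with AU-15330 and by 2.41 ± 0.08 with the combination against DMSO, with an interaction of -2.88 ± 0.12. The 3 genes named after binding proteins of IRF2, Irf2bp1, Irf2bp2 and Irf2bpl, went their own ways. Irf2bp1 fell in each comparison with DMSO, by 0.38, 0.64 and 0.77 with cisplatin, AU-15330 and the combination. Irf2bp2 fell by 0.43 with cisplatin and by 0.40 with the combination, while with AU-15330 its difference was 0.0029. Irf2bpl rose by 0.94 with AU-15330 and by 0.32 with the combination.

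Upstream of IRF3, IRF5 and IRF7 stand sensors, adaptors and kinases, and all 13 genes of this kind that were followed passed the filter. With cisplatin 4 were higher and 4 lower, with a median log2 change of -0.09 against 0.00 over all tested genes, of which 26% were higher and 25.7% lower. With AU-15330 9 were higher and 3 lower (median 0.38), where 73.4% of tested genes were called. With the combination against cisplatin 9 were higher and 3 lower (median 0.31 against 0.04), where 68.1% were called. Cgas, the gene of the DNA sensor cGAS, rose by 1.48 ± 0.12 with cisplatin, 0.97 ± 0.12 with AU-15330 and 2.29 ± 0.12 with the combination. Sting1, the adaptor below cGAS, rose by 0.60 ± 0.09 with cisplatin but fell by 2.47 ± 0.10 with AU-15330. Mavs, the adaptor of the RNA sensors, fell by 0.70 ± 0.07 with cisplatin and by 1.40 ± 0.07 with AU-15330. Myd88, the Toll-like receptor adaptor upstream of IRF5 and IRF7, rose by 1.08 ± 0.08 with AU-15330, and Irak1, a kinase that works with it, fell by 1.25 ± 0.06. Tbk1, the kinase of IRF3, rose by 0.66 with AU-15330 and had a difference of 0.12 with cisplatin that did not pass.

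Genes of the interferon receptors, of JAK-STAT signaling and of NF-kB, which lie upstream of Irf1, Irf7 and Irf8, moved in both directions. Of 13 tested, 5 were higher and 1 lower with cisplatin (median 0.04), where 51.7% of all tested genes were called. With AU-15330 5 were higher and 3 lower (median 0.08), where 73.4% were called. In the combination against cisplatin 6 were higher and 5 lower (median 0.03 against 0.04), where 68.1% were called. Stat2 rose by 2.57 ± 0.13 with cisplatin, and Socs1, a feedback inhibitor of the pathway, by 2.46 ± 0.15 with AU-15330. Ifnar2 and Ifngr2, subunits of the type I and type II interferon receptors, fell by 0.62 ± 0.08 and 0.53 ± 0.07 with AU-15330. The interferon genes themselves gave almost no reads. None of the 9 followed passed the filter, and the highest count in any library was 16, for Ifne, and 6 for Ifnb1.

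Of 10 textbook targets of IRF3 and IRF7, 9 were higher with cisplatin, with a median log2 change of 6.11 against 0.00 over all tested genes, of which 26% were higher. The Ifit1 and Rsad2 genes, antiviral effectors, led among the better expressed targets, at 7.83 ± 0.29 and 6.79 ± 0.28. With AU-15330 9 were higher and 1 lower (median 2.82), where 36.2% of tested genes were higher, led by Isg15, a ubiquitin-like modifier, at 7.16 ± 0.20, and Usp18, the protease that removes it, at 6.35 ± 0.22. Isg20, an exonuclease gene, fell by 2.25 ± 0.21. In the combination against cisplatin 6 were lower and 2 higher (median -1.18), where 32.7% of tested genes were lower, with Ifit1 at -2.32 ± 0.20 and Rsad2 at -2.23 ± 0.20 against Ccl5 at 1.17 ± 0.16 and Isg15 at 0.69 ± 0.14. The interaction was negative and called for 9 of the 10, against 15.8% of tested genes. Reads of the Ifit genes may have been split between near-identical copies by the counting.

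Textbook targets of IRF1 were called in 12 of 12 tested genes against DMSO, with 11 higher and 1 lower for each of cisplatin, AU-15330 and the combination. Of all tested genes, 26%, 36.2% and 36.8% were higher in these comparisons. The medians of the targets were 1.61, 2.16 and 2.15. Gbp2, a guanylate-binding protein, rose by 4.85 ± 0.19, 5.37 ± 0.19 and 5.86 ± 0.20 in the 3 comparisons. Il15, a cytokine that sustains NK cells, was the gene that fell, by 1.12 ± 0.15, 0.52 ± 0.14 and 1.10 ± 0.15. In the combination against cisplatin, 6 were higher, 2 lower and 4 not called (median 0.30 against 0.04), where 35.4% of tested genes were higher. Tap2, a peptide transporter of antigen presentation, led at 1.40 ± 0.08, followed by Psmb9, an immunoproteasome subunit, at 1.04 ± 0.13, and Bst2, an antiviral membrane protein, fell by 1.06 ± 0.13. The interaction was negative for 11 genes, against 15.8% of tested genes, and positive for Il15.

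**Figure D4:**
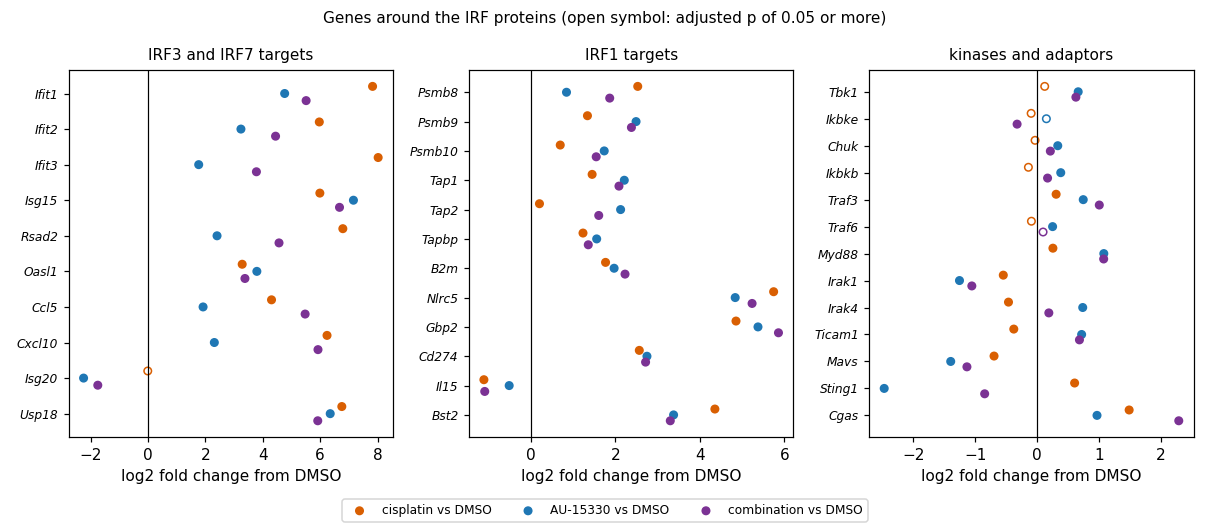
Log2 fold changes from DMSO (horizontal axes) for the 10 targets of IRF3 and IRF7, the 12 tested targets of IRF1, and the 13 kinases and adaptors, with 1 symbol each for cisplatin, AU-15330 and the combination. Open symbols did not pass an adjusted p of 0.05. The target panels lie mostly to the right of 0, with Isg20 and Il15 as the exceptions, and the kinases and adaptors spread to both sides.

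The lists for IRF2, IRF5 and IRF8 were short in these cells. The 3 genes tied to IRF2 all passed the filter. Among them Tlr3, the endosomal sensor of double-stranded RNA, rose by 1.97 ± 0.14 with cisplatin and by 4.26 ± 0.15 with AU-15330, while Gsdmd, the pore-forming protein of pyroptosis, fell by 1.12 ± 0.08 with AU-15330. Of 7 genes tied to IRF5 only 3 passed, and no library held more than 4 counts for the cytokine genes Il6, Il12b and Tnf. The genes that passed were Tlr7, Unc93b1 and Slc15a4, which serve endosomal Toll-like receptor signaling, and each was lower with AU-15330, where 37.2% of tested genes were. Tlr7, the receptor itself, had 183 to 333 counts per library with DMSO and 1 to 8 with AU-15330, a log2 change of -5.67 ± 0.23. Unc93b1 and Slc15a4 changed by -0.79 ± 0.12 and -0.67 ± 0.09. Among the genes tied to IRF8, Cybb, a subunit of the phagocyte oxidase, rose by 2.39 ± 0.28 with cisplatin from 3 to 20 counts per library with DMSO, and had at most 1 count with AU-15330. Klf4 fell by 0.39 ± 0.13 with AU-15330 and Id2 by 1.47 ± 0.34 with cisplatin.

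The genes whose log CPM followed each IRF gene most closely over the 24 libraries were found by Pearson's r, given as a description, since all 24 points share the treatments. Irf7 was closest to Lgals3bp (r = 0.99), Oasl2 (0.99) and Usp18 (0.99), of which the last is on the list of IRF3 and IRF7 targets. Irf5 was closest to Msln (0.99), the mesothelin gene and one of the mesothelial markers, then Nr0b2 (0.99) and Adgra2 (0.99). Irf1 was closest to Acacb, Tor3a and Fbxl22 (0.98 each), Irf2 to Khsrp (0.95), Tmem214 and Ldah (0.92 each), and Irf3 to Apeh (0.95), Acadvl (0.95) and Fbxl12 (0.93). Among the IRF genes themselves, r was 0.70 between Irf1 and Irf7, -0.80 between Irf1 and Irf2, -0.87 between Irf1 and Irf5, and -0.36 between Irf5 and Irf7.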

How the data were processed

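Directional libraries of polyadenylated RNA were read from one end. For alignment the authors used STAR 2.7.1a and mm10, per the submitters' processing notes, which also name DESeq2 1.36.0, and deposited raw counts per gene symbol. The counting tool, annotation and strand setting are not given in the sources used here. Groups came from the sample labels, which give cisplatin as 750 nM. The methods text of the study gives a higher concentration for these cells, and the labels were followed. The 48 columns were matched to 24 libraries by name, and both lanes of each were summed.

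Counts were tested with edgeR 4.0.16 (R 4.3.3): TMM scaling, filterByExpr (12941 of 25229 genes kept), 1 fit of group means with 20 residual degrees of freedom, and the quasi-likelihood F test, called at a Benjamini-Hochberg adjusted p under 0.05 over all tested genes. The SE is the log2 fold change divided by the square root of F, and log CPM used a prior count of 2. The scripts were tested on simulated data. Replicates differed by more than sampling noise (chi-square per degree of freedom of at least 2.30), so none was merged. There were 7 comparisons, alternatives from 12 planned settings, with DESeq2 1.42.0 as another test, and 2 settings added after seeing the data, which use replicates 1 to 3 or 4 to 6. Exon lengths and overlaps came from GENCODE vM21, promoter sequences from RefSeq.

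The IRF genes and gene lists were chosen with earlier results of these data known. Every IRF gene of the group is named. Of the other lists, the text names genes with the 2 largest called increases or decreases among those with a mean log CPM of at least 2, and any kinase, adaptor or other IRF gene. For each tested gene the 3 with the highest r of log CPM are named. Genes chosen after their values were seen are the untested Spi1, Csf1r, Ctss, Batf3, Il6, Il12b, Tnf, Ifne and Ifnb1, the tested Tlr7, Cybb, Cd14 and Pecam1, and the overlapping genes. Mouse tumors, human cells and protein data of the study were not used here. Results for some genes are not reported here.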

Additional observations from a re-analysis of the deposited data

Results flagged for a closer look

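In DMSO-treated cells, replicate 1 stood apart for Irf7. Its 11.1 CPM compared with 7.59 to 8.38 CPM in the other 5 libraries, and its gap to the nearest of them was 0.774 of the group's range, above Dixon's critical value for a group of 6. Of 22 groups examined, leaving out 2 of Irf8 with only zeros, 2 passed this value, where chance gives 1.1, and the other was Irf8 in DMSO, with 2 counts in a single library. On the log scale there were 3, the added one being Irf5 in cisplatin replicate 1, at 26.5 CPM. Without replicate 1 the log2 change of Irf7 was 4.83 with cisplatin and 4.34 with AU-15330.

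By edgeR's interaction test, the effect of AU-15330 differed between cells with and without cisplatin for 4 of the 5 tested genes. Of all 12941 tested genes, 33.7% were called in this test. The effect with cisplatin minus that without was -1.06 for Irf1, 0.55 for Irf2, 1.63 for Irf5 and -5.14 for Irf7 on the log2 scale. For Irf5 it passed within replicates 4 to 6 but not within replicates 1 to 3, and for Irf2 the reverse.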

How the results depend on the processing

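Of 485 log2 fold changes of the 5 tested genes under alternative settings, 458 kept their direction and their side of the threshold, 22 lost the call, 4 gained it and 1 reversed. The reversal was the interaction of Irf3, which was not called, at -0.020 without replicate 1, in a range up to 0.22 (without replicate 2). Irf3 in the combination against cisplatin was called with DESeq2 size factors and with the DESeq2 Wald test (-0.19 each, adjusted p = 0.0394 and 0.0339). Irf2 in that comparison was -0.17 with library totals (adjusted p = 0.109). Irf3 with AU-15330 against cisplatin lost its call in 9 planned settings. The cause was not tested. Counts of called genes stayed within 1.5 times in every planned setting. With replicates 1 to 3 alone they dropped to 4361 for cisplatin against DMSO, 2817 for the combination against AU-15330 and 1701 for the interaction, from 6689, 5394 and 4361, with fewer libraries in the fit.

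Same-numbered libraries of different groups were not treated as pairs, since the labels do not tie the numbers to a shared source and not every pair deviated together. The mean correlation of their deviations was 0.14 (lowest -0.13, over 0.1 in 23 of 36 pairs), against -0.027 for different numbers (over 0.1 in 35 of 180), so shared numbers did carry some common deviation, and 3 of 24 libraries correlated best with their own number in all other groups. With the replicate block, the counts of called genes moved to 7354 for cisplatin against DMSO and 5303 for the interaction, and Irf2 in the combination against cisplatin was -0.23 (adjusted p = 0.0555). Depth limits Irf8 most, and Irf5 under AU-15330, at 3 to 15 counts.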
